A study of Mus musculus with 10 samples.

Results

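The 5 control arrays of a 10-array study give the baseline RNA levels of cells sorted as astrocytes from mouse cortex. They were chosen by their titles, which call each one a control array of sorted astrocytes, and their replicate labels number them 1 to 5. All 5 are labelled wild-type and came from mice 8 weeks old, and no treatment is named. The cells were sorted by FACS for an EGFP reporter expressed in astrocytes. The sources used here do not give the promoter or allele that drives EGFP, the strain, or whether an array holds 1 animal or a pool. The remaining 5 arrays of the study carry an Fmr1 knockout, and no value below uses them. With 1 group there is no test between groups: levels, ranks and the spread between arrays are given as descriptions, and the spread covers these 5 samples only.

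Astrocytes are glial cells that take up glutamate, GABA and potassium released by neurons, pass water and ions through their endfeet on blood vessels, and supply neurons with lactate, lipids and secreted proteins. In adult cortex they keep in contact with microglia, the resident macrophages of the brain, which carry the receptors P2ry12 and Cx3cr1 and depend on Csf1r signalling. Dissociating tissue into single cells is known to induce immediate early genes such as Fos and Jun before RNA is extracted. Lists of marker and function genes are used below, and every gene of a list that has a probe set of its own is counted, whatever its value.

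Values are log2 signal levels per probe set as the authors deposited them, so that a difference of 1 is a 2-fold difference in signal. Of 33793 probe sets, 23521 are paired with 1 gene symbol, and the brightest probe set of each gene gave 22180 genes. A level is the mean of the 5 arrays, and a percentile of 100 is the brightest gene. Signal depends on the sequence and number of the probes as well as on the RNA, and it is not scaled per length, so ranks order signals and not transcript numbers. In sorted bulk material, fewer cells of a type and less RNA per cell cannot be told apart.

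Background was read from 1390 olfactory and vomeronasal receptor genes, which encode odour and pheromone receptors of the nose. Their 95th percentile was 6.38, 6.42, 6.42, 6.26 and 6.18 on arrays 1 to 5, and a gene above this level on all 5 arrays is here above background. This held for 9978 of 22180 genes, or 45.0%, while 2725 passed on 1 to 4 arrays and 9477 on none. Of the receptor genes themselves 47 passed on all 5 arrays. The median gene lay at 6.39, the 95th percentile at 8.98 and the 99th at 10.2, and 287 genes, 1.29%, exceeded a level of 10. A gene not above background may still be expressed below what these probes can separate from it.

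**Figure D1:**
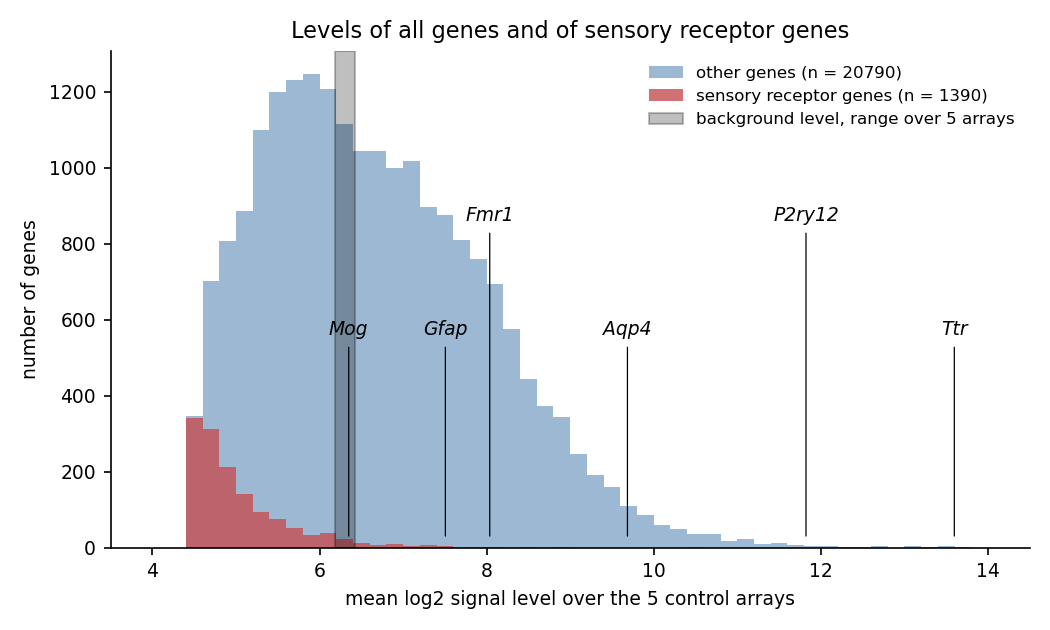
Histogram of the mean log2 signal level over the 5 control arrays (x axis) against the number of genes (y axis), for 1390 sensory receptor genes in red and all other genes in blue, with the range of the background level over the arrays as a grey band. Mog at 6.35 lies in the band, Gfap at 7.51 and Fmr1 at 8.04 lie to its right, Aqp4 reads 9.69, P2ry12 11.82 and Ttr 13.60 at the right edge.

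The 5 arrays were not equally alike. Across the 9978 genes above background, Pearson correlations between pairs of arrays ran from 0.894 for arrays 1 and 5 to 0.972 for arrays 3 and 5, where genes are not independent replicates. Every pair that includes array 1 lay at 0.933 or lower, and every other pair at 0.940 or higher. Arrays 1 and 5 differed by more than 1 in 446 genes, arrays 4 and 5 in 26. Xist, the RNA that coats and silences an X chromosome in females, read 10.60 and 10.98 on arrays 2 and 3 and 5.10, 5.03 and 5.07 on arrays 1, 4 and 5. The Y-linked translation factor gene Eif2s3y had the opposite order, with 8.54, 8.63 and 8.35 on arrays 1, 4 and 5 and 5.18 and 5.02 on arrays 2 and 3. Array 1, and arrays 2 and 3, are therefore named beside the results they touch.

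The brightest signals came from the mitochondrial genome. Of its 10 genes with a probe set, 9 were among the 30 genes named for the highest levels, led by ND4, a subunit of respiratory complex I, at 13.70 ± 0.01 (SD, n = 5). COX1, a catalytic subunit of cytochrome oxidase, read 13.51 ± 0.05, ND5 13.46 ± 0.03, and CYTB, the cytochrome b of complex III, 13.43 ± 0.03 (SD, n = 5 each). These genes also had small spreads, at signals close to the highest on any array, 13.86. Whether such probe sets were near saturation was not tested.

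Among nuclear genes that encode proteins the brightest was Ttr, the thyroxine carrier transthyretin, which in brain is made by the choroid plexus epithelium. Ttr read 13.80, 13.43, 13.39, 13.76 and 13.62 on arrays 1 to 5, the third highest mean of all 22180 genes. It was bright on every array, with arrays 1 and 4 above arrays 2 and 3. The nuclear long non-coding RNA Malat1 read 13.11 ± 0.09 (SD, n = 5), the tetraspanin gene Cd81 12.77 ± 0.15 and Serinc3 12.75 ± 0.24. The second probe set of Malat1 varied far more, at 10.81 ± 0.87 (SD, n = 5), and was highest on array 2 at 11.87 and lowest on array 5.

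The 30 brightest named genes held markers of more than 1 cell type. From the astrocyte list came Sparcl1, the synapse-promoting protein hevin, at 12.39 ± 0.22 and Glul, glutamine synthetase, at 12.10 ± 0.15 (SD, n = 5 each). From the microglia list came the lysosomal protease genes Ctsd at 12.70 ± 0.16, Ctss at 12.22 ± 0.27 and Lgmn at 11.83 ± 0.36, the P-selectin ligand Selplg at 12.62 ± 0.44, the receptor Csf1r at 12.42 ± 0.40, the complement gene C1qb at 12.06 ± 0.41 and P2ry12 at 11.82 ± 0.55 (SD, n = 5 each). Cst3, the secreted protease inhibitor cystatin C that both cell types make, read 12.36 ± 0.24. Of the 100 brightest genes of each array, 54 were shared by all 5 arrays and 151 appeared on any, and 80 were shared when array 1 was left out.

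Astrocyte identity genes lay near the top of the range on all arrays. Of 40 genes fixed, 38 had a probe set of their own. All 38 were above background, against 45.0% of all genes, and 30 were among the brightest 5.0% of genes. Their median percentile was 99.2, with S100b lowest at a level of 7.13 ± 0.29 (SD, n = 5). The mean level of the list was 10.58, 9.92, 9.97, 10.16 and 9.81 on arrays 1 to 5. All 38 members read highest on array 1, as did 25.9% of all genes above background. The lowest array of the list mean was array 5 as deposited and array 2 after the arrays were shifted to equal medians. A range above 1 over the 5 arrays was found in 6 of 38 members, 15.8%, and in 0 without array 1. The share was 4.18% of all genes. In the brightest of 5 equal groups of genes above background it was 17.8%, so 15.8% is not high for genes this bright.

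Transporters that clear transmitter were among the brightest members. Slc1a3, the glutamate transporter GLAST, read 11.82, 11.00, 11.26, 11.63 and 11.21 on arrays 1 to 5. Slc1a2, the glutamate transporter GLT-1, read 11.68, 10.74, 10.96, 11.18 and 10.71. Both were highest on array 1 and next on array 4, and arrays 2, 3 and 5 lay close together. Glul, which turns the glutamate taken up into glutamine, varied less, with 12.23, 11.87, 12.05, 12.21 and 12.15.

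In the list of transmitter uptake and recycling, 10 of 11 measured genes were above background, against 45.0% of all genes. Of the 11, 7 were among the brightest 5.0%. Array 1 was the highest for 10 of 11, against 25.9% of all genes above background. The GABA transporter Slc6a11, known as GAT-3, read 11.02 ± 0.21, the glutamine exporter Slc38a3 10.70 ± 0.38 and the cystine-glutamate exchanger Slc7a11 9.08 ± 0.44 (SD, n = 5 each). The second probe set of Slc7a11 read 5.58 ± 0.14, under the background, and the second probe set of Glul read 8.33 ± 0.57, so the level of these genes depends on the probe set.

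Genes for potassium, water and gap junctions were all measured above background, 17 of 17 against 45.0% of all genes. Of the 17, 11 were among the brightest 5.0%. The sodium pump subunit Atp1b2 read 11.59 ± 0.27, the gap junction protein Gja1, connexin 43, 10.80 ± 0.30, and the bicarbonate transporter Slc4a4 10.43 ± 0.28 (SD, n = 5 each). Aqp4, the water channel of the endfeet, read 10.10, 9.48, 9.54, 9.97 and 9.34 on arrays 1 to 5, and the inward rectifier Kcnj10, known as Kir4.1, read 9.25, 8.92, 8.84, 8.78 and 8.75. Array 1 was the highest for both, and the remaining arrays overlapped in order. The potassium channel gene Kcnk1 read 9.99 ± 0.37 and Mlc1, a membrane protein of the endfeet, 10.05 ± 0.44 (SD, n = 5 each).

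Receptors split into bright and undetected members. Of 16 measured, 12 were above background, against 45.0% of all genes, and 3 passed on no array. The sphingosine phosphate receptor S1pr1 read 10.84 ± 0.33, the neurotensin receptor Ntsr2 10.53 ± 0.26, the AMPA receptor subunit Gria2 10.40 ± 0.42, the GABA-B receptor subunit Gabbr1 10.30 ± 0.28 and the endothelin receptor Ednrb 10.00 ± 0.25 (SD, n = 5 each). Of the group I and II metabotropic glutamate receptors, Grm3 read 10.52, 9.85, 9.73, 10.05 and 9.58 on arrays 1 to 5, and Grm5 read 5.51, 5.60, 5.15, 5.11 and 5.18. Grm3 was above background on every array and Grm5 on none, so the level of Grm5, a receptor known from young astrocytes and from neurons, was not detectable with this probe set.

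Secreted and matrix proteins ranged from the brightest genes to background. Of 18 measured, 12 were above background, against 45.0% of all genes, and 5 were among the brightest 5.0%, with a median percentile of 67.3. Sparcl1 was followed by the proteoglycan brevican, Bcan, at 10.78 ± 0.40, Sparc at 10.70 ± 0.26 and neurocan, Ncan, at 10.02 ± 0.30 (SD, n = 5 each). The second probe set of Ncan had a mean of 8.45 and was highest on array 2, while its brightest was highest on array 1. Sparc, an antagonist of hevin that microglia make as well, read 10.29 on array 1 and 10.63 to 10.97 on the rest, so its lowest array was the one where Sparcl1 was highest at 12.75. The glypican Gpc5 read 10.33 on array 1 and 9.10 to 9.52 on arrays 2 to 5.

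All 9 engulfment genes were above background, against 45.0% of all genes, and 7 of them were among the brightest 5.0%. The phagocytic receptor Mertk read 11.50 ± 0.20, the integrin Itgb5 11.39 ± 0.35 and the bridging ligand Mfge8 11.16 ± 0.35 (SD, n = 5 each). Mfge8, which astrocytes secrete, was highest on array 1 at 11.70. Itgb5 and Mertk, which microglia express as well, were highest on array 5 at 11.74 and 11.66.

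Lipid and glucose metabolism genes were measured almost throughout above background, 17 of 18 and 20 of 20, against 45.0% of all genes. Clu, the lipoprotein clusterin, read 10.69 ± 0.19, the cholesterol exporter Abca1 10.10 ± 0.15, the desaturase Fads2 10.05 ± 0.39 and Apoe, the main lipoprotein of brain, 9.91 ± 0.22 (SD, n = 5 each). The fatty acid synthase gene Fasn read 10.12 on array 1 and 9.19 to 9.57 on the rest, and Insig1, a regulator of sterol synthesis, 10.02 on array 1 and 8.80 to 9.21 on the rest. Lipid genes were highest on array 1 in 14 of 18 cases, against 25.9% of all genes above background. In the glucose list the astrocyte aldolase Aldoc read 11.20 ± 0.33, pyruvate kinase, Pkm, 10.08 ± 0.32 and the glycogen phosphorylase Pygb 9.72 ± 0.37 (SD, n = 5 each).

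All 23 transcription factors of the list were above background, against 45.0% of all genes, with a median percentile of 91.6. Of the 23, 19 were highest on array 1, against 25.9% of all genes above background. Sox9, which maintains astrocyte identity, read 10.10, 9.82, 9.51, 9.94 and 9.41 on arrays 1 to 5. Id2 read 9.67 ± 0.36, Zbtb20 9.56 ± 0.29, Sox2 9.25 ± 0.44 and Nfib 9.16 ± 0.33 (SD, n = 5 each). The Notch target Hes5 had the largest spread of the list, with 9.06, 8.55, 8.01, 8.18 and 7.14, and its second probe set read 6.04 ± 0.22, under the background.

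Filament and reactive genes lay lower than the transport genes. Gfap, the intermediate filament whose level marks reactive astrocytes and which is low in resting cortical grey matter, read 7.88, 7.23, 7.37, 7.66 and 7.40 on arrays 1 to 5, rank 5510 of 22180. Vim, the filament vimentin that vascular cells and microglia share, read 8.68 ± 0.25 (SD, n = 5). Of 23 measured reactive genes 10 were above background, a share of 43.5% against 45.0% of all genes, and none was among the brightest 5.0%. Lcn2, a gene induced in strongly reactive astrocytes and carried by neutrophils, read 6.17, 6.82, 6.36, 6.57 and 7.42, above background on 3 arrays and highest on array 5.

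**Figure D2:**
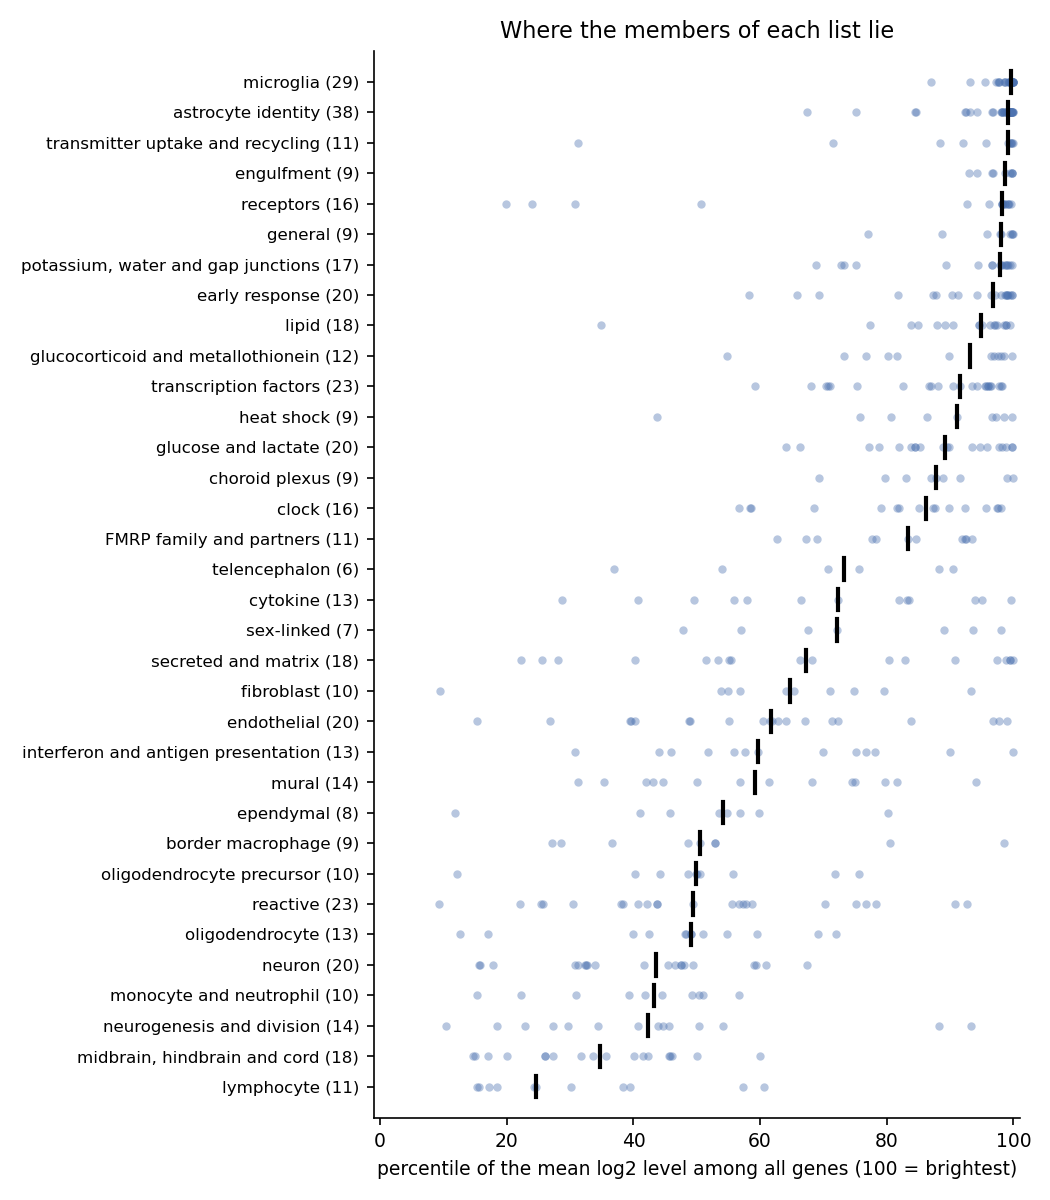
Percentile of each gene's mean log2 level among all 22180 genes (x axis, 100 is the brightest) for the measured members of each list (rows, number of members in brackets), with the median of the list as a black bar. Microglia and astrocyte identity lists have medians of 99.6 and 99.2, neuron, monocyte and lymphocyte lists lie at 43.6, 43.2 and 24.6.

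The label of sorted astrocytes was checked against markers of the other cells a gate could hold, and microglia markers were as bright as astrocyte markers. Of 30 microglia genes fixed, 29 were measured. All 29 were above background, against 45.0% of all genes, and 27 were among the brightest 5.0%, with a median percentile of 99.6. No member of this list is in another list. The mean level of the list was 9.98, 10.79, 11.00, 10.91 and 10.96 on arrays 1 to 5. All 29 members were lowest on array 1, as were 391 of the 731 genes above background with a range above 1. Array 1 also had the lowest list mean after the arrays were shifted to equal medians and after quantile normalization.

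P2ry12, the ADP receptor of resting microglia, read 10.84, 11.97, 12.14, 12.06 and 12.10 on arrays 1 to 5. Cx3cr1, the fractalkine receptor, read 10.95, 11.51, 11.87, 11.70 and 11.65, and Csf1r read 11.77, 12.32, 12.65, 12.60 and 12.75. Array 1 was the lowest for all 3 genes, and none of the other arrays reached down to it. Tmem119, a marker of brain microglia as against blood-derived macrophages, read 8.25 on array 1 and 9.17 to 9.43 on the rest. A range above 1 was found in 20 of 29 members, against 4.18% of all genes. In the brightest of 5 equal groups of genes above background the share was 17.8%. When array 1 was left out, 0 of 29 members and 1.35% of all genes had such a range.

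The same array thus read highest for 38 of 38 astrocyte genes and lowest for 29 of 29 microglia genes. Leaving out array 1, the list means ran from 9.81 to 10.16 for astrocyte identity and from 10.79 to 11.00 for microglia. The part that the make-up of the sorted cells plays in the spread of the genes above was not tested. Signals of unlike probe sets cannot be turned into shares of cells.

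Markers of other immune cells were mostly near background, which 45.0% of all genes exceeded on all 5 arrays. Of 9 border macrophage genes 2 were above background, the scavenger receptor Stab1 at 9.93 ± 0.48 and the mannose receptor Mrc1 at 7.79 ± 0.31 (SD, n = 5 each), while Cd163 and Pf4 passed on no array. Of 10 monocyte and neutrophil genes 0 were above background on all 5 arrays, and of 11 lymphocyte genes 1 was, Nkg7 at 6.84 ± 0.08 (SD, n = 5). The neutrophil protein gene S100a8 read 5.95, 6.09, 5.26, 6.38 and 6.70, above background on arrays 4 and 5. Plac8, a gene of monocytes and other leukocytes, read 7.03 on array 5 and 6.19 to 6.43 on the rest. The mean of the monocyte and neutrophil list was highest on array 5 at 6.29, and it stayed so under both scalings tried. On array 4 this mean was 6.20. Of the 10 members 6 were highest on array 5 and 4 on array 4, among them Elane at 6.91 on array 4 and 6.15 on array 5.

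Vascular markers ranged from bright to background, and their counts below stand beside the 45.0% of all genes above background. Of 20 endothelial genes 11 were above background, and those that led the list are also found in other cells: the immunoglobulin protein basigin, Bsg, at 10.25 ± 0.16, the glucose transporter Slc2a1 at 9.59 ± 0.28 and the TGF-beta co-receptor Eng at 9.33 ± 0.50 (SD, n = 5 each). Eng read 8.45 on array 1 and 9.43 to 9.67 on arrays 2 to 5, with its lowest value on the array where the microglia genes were lowest. Pecam1, an adhesion molecule of endothelium, read 7.36 ± 0.31, and the tight junction gene Cldn5, a defining marker, read 6.29, 6.54, 5.89, 6.58 and 6.40 and passed the background on 3 arrays. Of 14 mural genes 8 passed, with Pdgfrb at 8.86 ± 0.40 and Rgs5 at 7.50 ± 0.34 (SD, n = 5 each), and of 10 fibroblast genes 7 passed, led by Igf2 at 8.77 ± 0.27. The second probe set of Slc2a1 read 5.76 ± 0.16 and that of Rgs5 5.92 ± 0.26, both under the background.

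Of 20 neuronal genes 4 were above background, against 45.0% of all genes, and 10 passed on no array. Snap25, a synaptic vesicle fusion protein, read 6.44, 6.35, 6.54, 6.27 and 6.20, and Syt1, the calcium sensor of release, 6.50, 6.24, 6.40, 6.08 and 6.23. Rbfox3, the nuclear marker NeuN, read 6.31 ± 0.24 (SD, n = 5). These genes lay at the background, with Snap25 above it on 4 arrays, Rbfox3 on 3 and Syt1 on 2. The neuropeptide gene Npy read 8.14 on array 2 and 6.21 to 6.90 on the rest. The other members above background were the kinase Camk2a at 7.14 ± 0.09, the brightest of the list, the enolase Eno2 at 6.78 ± 0.22 and the surface protein Thy1 at 6.76 ± 0.24 (SD, n = 5 each).

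The counts that follow stand beside the 45.0% of all genes above background. Of 13 measured oligodendrocyte genes 4 passed, with the tight junction gene Cldn11 at 7.34 ± 0.23 and myelin basic protein, Mbp, at 6.79 ± 0.27 (SD, n = 5 each). Mog, a surface protein of myelin, read 6.35 ± 0.18 and passed on 2 arrays. Of 10 precursor genes 3 passed, among them the lineage factors Olig2 at 7.53 ± 0.27 and Olig1 at 7.34 ± 0.20 (SD, n = 5 each). Of 14 genes of neurogenesis and division 2 passed, the growth factor receptor Egfr at 8.78 ± 0.29 and the replication clamp Pcna at 8.27 ± 0.48 (SD, n = 5 each).

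Choroid plexus genes were above background without exception, 9 of 9 against 45.0% of all genes, with a median percentile of 87.8. Besides Ttr, the anti-ageing hormone klotho, Kl, read 10.90, 10.03, 9.41, 10.62 and 10.31 on arrays 1 to 5, and Otx2, a homeobox factor the epithelium needs, read 8.50, 7.51, 7.17, 8.46 and 8.05. Calml4 read 9.21, 8.15, 7.20, 8.57 and 7.82. These genes shared an order that differed from that of the astrocyte and microglia lists: array 3 was lowest for 9 of 9 members, and array 1 was highest for 7 and array 4 for 2. Over all genes above background 25.9% were highest on array 1 and 22.1% on array 4. Of the 731 genes above background with a range above 1, 82 were lowest on array 3. The list mean was 9.40, 8.70, 8.28, 9.24 and 8.86, with the same highest and lowest array under both scalings tried. A range above 1 was found in 6 of 9 members, in 6 without array 1 and in 2 without array 3, against 4.18%, 1.35% and 3.55% of all genes.

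Regional genes were read against the 45.0% of all genes above background. Of 6 measured telencephalic genes 4 were above background, the homeobox factors Lhx2 at 8.45 ± 0.25, Otx1 at 8.28 ± 0.25 and Emx2 at 7.29 ± 0.32, and the nuclear receptor Nr2e1 at 7.53 ± 0.27 (SD, n = 5 each). Of 18 genes that mark midbrain, hindbrain and cord, 1 passed, Foxa2 at 6.81 ± 0.22, and 13 passed on no array, among them the engrailed genes En1 and En2.

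Immediate early genes were bright on every array. Of 20 measured, 20 were above background, against 45.0% of all genes, and 11 were among the brightest 5.0%, with a median percentile of 96.8. Fos, which forms the AP-1 factor with Jun, read 9.45, 10.14, 10.30, 11.02 and 10.93 on arrays 1 to 5, and Jun read 10.85, 11.40, 11.96, 12.31 and 12.23. Egr1, a zinc finger factor, read 8.66, 10.43, 9.85, 10.92 and 10.23. For all 3 genes array 1 was lowest and array 4 highest.

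The mean of the early response list was 8.59, 9.07, 9.23, 9.58 and 9.59. Array 1 was lowest for 15 of 20 members, as it was for 391 of the 731 genes above background with a range above 1. Such a range was found in 12 of 20, or 4 of 20 without array 1, against 4.18% and 1.35% of all genes. Over all 5 arrays the share was 17.8% in the brightest of 5 equal groups of genes above background. Fosb read 8.15, 8.33, 8.65, 9.81 and 9.46, and Ier2 7.32, 7.20, 7.75, 8.73 and 8.32, with arrays 4 and 5 above arrays 1 to 3 in both. The highest array of the list mean was array 5 as deposited and array 4 after a shift to equal medians. Microglia genes were lowest on array 1 as well, and their part in this order was not tested.

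The heat shock list had its own order. The inducible chaperone genes Hspa1a and Hspa1b, near-identical copies whose probe sets can share signal, read 8.96, 9.83, 10.24, 7.52 and 10.75, and 8.74, 10.18, 9.83, 7.47 and 10.26. Array 4, where Fos and Jun were highest, was the lowest for both, and the SDs of Hspa1a and Hspa1b, 1.27 and 1.19, were among the largest of any gene outside the sex chromosomes. The constitutive chaperone Hspa8 read 11.33 ± 0.11 and the endoplasmic reticulum chaperone Hspa5 9.89 ± 0.22 (SD, n = 5 each). Array 5 was the highest for 8 of 9 members, against 27.5% of all genes above background.

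Cytokine genes ranged from bright to background. Of 13 measured, 8 were above background, 61.5% against 45.0% of all genes. The chemokine gene Ccl3 read 9.93, 11.03, 11.26, 11.02 and 11.26, Il1a 7.88, 9.05, 9.26, 9.54 and 9.25, and Il1b 6.43, 6.69, 6.71, 6.97 and 8.64. Ccl3 and Il1a stood low on array 1, while Il1b stood high on array 5. Rgs1, a G-protein regulator of leukocytes, read 6.97 on array 1, 7.70 to 8.22 on arrays 2 to 4 and 9.04 on array 5. The range exceeded 1 in 8 of 13 genes, and in 2 of 13 without array 1, against 4.18% and 1.35% of all genes.

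In the list of interferon and antigen presentation genes 7 of 13 were above background, 53.8% against 45.0% of all genes. Array 5 was the highest for 11 of 13, against 27.5% of all genes above background. The list means were 7.05, 7.22, 7.25, 7.28 and 7.84 on arrays 1 to 5. The membrane protein Ifitm3, which blocks viral entry, read 8.35 on array 5 and 6.83 to 7.27 on the rest. The class I gene H2-K1 read 7.73, 8.33, 8.51, 8.57 and 8.95, and B2m, the light chain of class I, 11.53, 12.12, 12.52, 12.30 and 12.50. A range above 1 was found in 7 of 13 members, in 4 without array 1 and in 2 without array 5, against 4.18%, 1.35% and 2.85% of all genes.

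**Figure D3:**
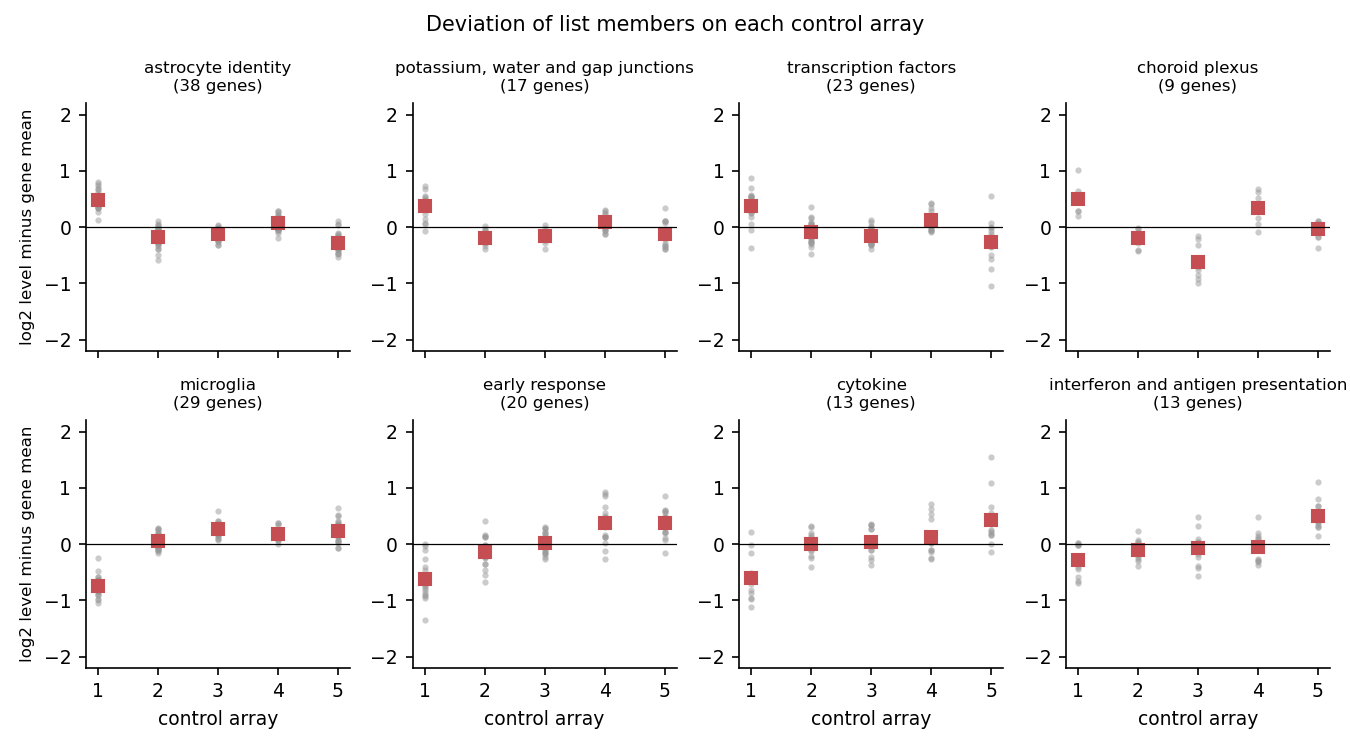
Log2 level minus the gene's mean over the 5 arrays (y axis) on each control array (x axis) for the members of 8 lists (grey points) with their mean (red squares). Astrocyte identity and microglia members lie on opposite sides of 0 on array 1, choroid plexus members lie lowest on array 3, and interferon members highest on array 5.

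All 16 clock genes were above background, against 45.0% of all genes. Per1, a repressor of the clock, read 9.70 ± 0.35, Clock 9.54 ± 0.21 and Nr1d1, the repressor REV-ERB alpha, 9.50 ± 0.25 (SD, n = 5 each). Of the 16, 1 had a range above 1, against 4.18% of all genes. All 12 glucocorticoid and metallothionein genes passed, with the metal-binding protein genes Mt2 at 11.72 ± 0.26 and Mt1 at 9.92 ± 0.15, and the steroid-induced chaperone Fkbp5 at 7.38, 7.12, 8.00, 7.27 and 8.17, high on arrays 3 and 5. Of these 12 genes 5 had a range above 1, and 2 without array 1 or without array 5, where 1.35% and 2.85% of all genes had one.

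Fmr1, which encodes the RNA-binding protein FMRP and is the gene the study disrupts elsewhere, had a probe set of its own at rank 3403 and read 8.28, 7.60, 8.03, 8.17 and 8.10 on arrays 1 to 5. Its paralog Fxr1 read 8.67 ± 0.12 and Fxr2 7.95 ± 0.24 (SD, n = 5 each). All 11 measured genes of the FMRP family and its partners were above background, against 45.0% of all genes. Of the 11, 0 had a range above 1, against 4.18% of all genes, a share at which 0 of 11 says little. Array 2 was the lowest for Fmr1, Fxr1 and Fxr2. Partners with higher signals were the RNA silencing factor Ago2 at 8.79 ± 0.25 and the repressor Pum2 at 8.64 ± 0.26 (SD, n = 5 each).

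The spread between arrays was small for most genes. Over the 9978 genes above background the median SD was 0.19, a factor of 1.14 in signal, and 54.3% had a range under 0.5. A range above 1 was found in 731 of them, and in 167 when array 1 was left out. The median SD was 0.16 in the dimmest of 5 equal groups of these genes by level and 0.24 in the brightest, where 17.8% had a range above 1. Of the 731 genes, 391 were lowest and 240 highest on array 1, while 286 were highest and 89 lowest on array 5. Array 4 was the lowest for 31 and array 2 the highest for 36.

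**Figure D4:**
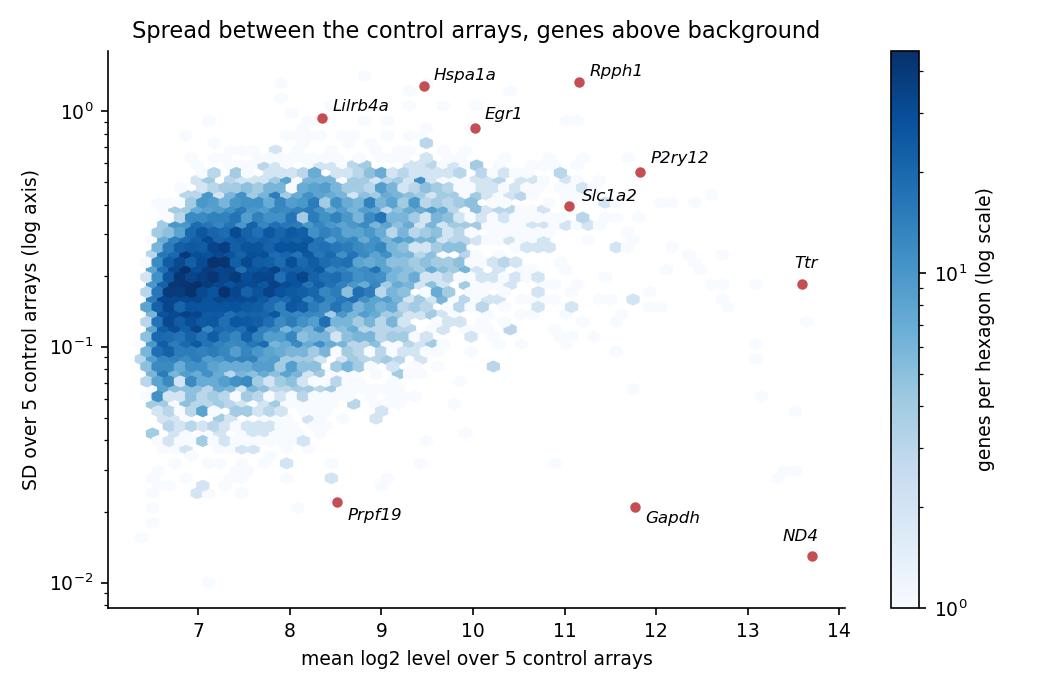
Mean log2 level over the 5 control arrays (x axis) against the SD over them (y axis, log scale) for the 9978 genes above background, as hexagons coloured by the number of genes, with 10 genes marked in red. Gapdh and ND4 lie at the bottom right with SDs of 0.02 and 0.01, while Hspa1a and Rpph1 lie at the top with SDs above 1.

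The most stable bright genes were ND4 and Gapdh. Gapdh, a glycolytic enzyme used as a reference in expression assays, read 11.76, 11.80, 11.79, 11.76 and 11.76, and its second probe set read 11.61 ± 0.02 (SD, n = 5). Zcchc14 read 8.07 ± 0.02, the splicing factor Prpf19 8.52 ± 0.02 and the acyltransferase Agpat3 9.04 ± 0.03 (SD, n = 5 each). Other reference genes varied more. The cytoskeletal actin gene Actb read 9.03 on array 1 and 9.70 to 9.96 on the rest, and Actg1 read 10.26 on array 2 and 8.53 to 9.19 on the rest, while its second probe set was highest on array 4 at 9.62.

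The largest spreads belonged to sex-linked genes. Besides Xist, with an SD of 3.14, and Eif2s3y, with 1.87, the Y-linked histone demethylase genes Uty and Kdm5d read 7.85 and 7.06 on array 1, 4.82 and 4.86 on array 2, 4.77 and 4.83 on array 3, 8.15 and 7.35 on array 4 and 7.81 and 7.42 on array 5. The groups of arrays that Xist and the Y-linked genes mark did not overlap: arrays 2 and 3 lacked Y signal and had Xist signal. Ddx3x, an X-linked helicase, read 9.37, 9.76, 9.66, 9.77 and 9.84 and did not follow that division. The labels give no sex.

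Single arrays stood apart by more than 1 from every other array in few genes. On array 1, 29 genes lay below all other arrays and 3 above, and those below included the microglia genes P2ry12, Cd53, a leukocyte tetraspanin, and Cd68, a lysosomal protein of macrophages. Cd68 read 9.67, 10.98, 11.12, 10.82 and 10.99, and Cd53 read 9.93, 11.02, 11.16, 11.15 and 11.33. On array 3 no gene stood apart in this way, and on array 4 only Hspa1a and Hspa1b did, below the rest.

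On array 5, 19 genes stood above all other arrays and 3 below. Among those below was Cd209a, a lectin gene of myeloid cells, at 7.79 against 9.01 to 10.66 on the rest. Adgre4, an adhesion receptor of myeloid cells, read 6.08, 5.81, 6.23, 6.06 and 8.66, and Cybb, the catalytic subunit of the phagocyte oxidase, read 6.66, 6.85, 6.08, 6.84 and 8.83. The leukocyte integrin Itgal read 7.91 on array 5 and 5.99 to 6.27 on the rest, Plbd1 7.82 against 6.03 to 6.33, Ms4a4a 7.68 against 5.83 to 6.27, and the inhibitory receptor Lilrb4a 9.96 against 7.62 to 8.30. Several of these genes are known from monocytes and other blood leukocytes, whose list had its highest mean on the same array. That mean was 6.29 on array 5 and 6.20 on array 4, and 4 of the 10 members were highest on array 4. None of the 10 was above background on all 5 arrays. The part of such cells in these values was not tested.

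On array 2, 6 genes stood above and 3 below the rest, and of these Actg1 and Bgn are named after their values were seen. Above were Npy, Actg1, Mettl7a3 and the proteoglycan Bgn, at 9.67 on array 2 and 8.25 to 8.66 elsewhere. The mitochondrial gene ND6, transcribed from the opposite strand to the other mitochondrial protein genes, read 11.35, 12.37, 11.15, 10.76 and 9.85, and it was the only gene of 10 from that genome with a range above 1. Etnppl, an enzyme of phosphoethanolamine breakdown found in astrocytes, read 7.40 on array 2 and 8.86 to 9.37 elsewhere.

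Small non-coding RNA genes differed in spread by class. Rpph1, the RNA of ribonuclease P, named here after its values were seen, read 12.37, 12.16, 11.19, 11.01 and 9.05, from rank 19 on array 1 to rank 1170 on array 5. Of 46 small nucleolar RNA genes above background 27 had a range above 1, with a median SD of 0.43, against 639 of 9431 protein-coding genes with a median SD of 0.19. Among 96 microRNA genes above background 18 had a range above 1, with a median SD of 0.23. The 233 long non-coding RNA genes above background had a median SD of 0.20. Small nucleolar RNAs and the RNA of ribonuclease P are short and not polyadenylated.

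Promoter sequence was set beside level and spread, using 1 RefSeq window per gene on assembly GRCm38.p6, from 250 bases before to 50 bases after the start, for the 14276 genes with exactly 1 window. Motifs were searched on both strands as exact letters: TATAAA for the TATA box, CCGGAAGT for the general ETS site, GCGCATGC for NRF1 and GAGGAAGT for PU.1, the ETS factor of myeloid cells, whose last 6 letters are those of the general ETS site. The TATA, ETS and NRF1 letters were held by 13.7%, 5.14% and 3.71% of all 14276 windows, and the PU.1 letters by 428 windows. A match is a run of letters, not a bound site.

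A few windows show the sequences counted. Ctss, Cd53 and C1qc are microglia genes that were lowest on array 1 and hold the PU.1 letters, Fos is an early gene with a TATA box, and Zcrb1 is a gene with a small SD, 0.04, that holds the general ETS letters. C1qc and Zcrb1 were chosen for their promoters after values were seen. Capitals mark the motif as it reads on the gene's own strand. In Ctss, Cd53, C1qc and Zcrb1 the motif lies on the opposite strand and so reads as its reverse complement. Only the motif each gene is shown for is marked. Among the TATA, ETS, NRF1 and PU.1 letters, the Ctss window also holds TATA and the Zcrb1 window NRF1, both on the opposite strand. Matches to other motifs are not listed here.
Ctss, chr3:95526536-95526835, plus strand: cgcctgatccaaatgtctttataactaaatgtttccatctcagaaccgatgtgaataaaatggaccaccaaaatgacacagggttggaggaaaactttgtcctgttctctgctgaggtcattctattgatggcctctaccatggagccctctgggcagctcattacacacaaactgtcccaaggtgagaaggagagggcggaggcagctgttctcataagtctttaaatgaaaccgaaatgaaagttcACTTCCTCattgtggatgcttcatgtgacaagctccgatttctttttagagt
Cd53, chr3:106790100-106790399, minus strand: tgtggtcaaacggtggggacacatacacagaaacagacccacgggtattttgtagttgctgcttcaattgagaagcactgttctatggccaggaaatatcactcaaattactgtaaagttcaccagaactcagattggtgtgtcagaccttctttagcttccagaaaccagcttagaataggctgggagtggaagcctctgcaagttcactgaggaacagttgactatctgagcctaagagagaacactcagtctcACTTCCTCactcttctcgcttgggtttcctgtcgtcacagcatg
C1qc, chr4:136892865-136893164, minus strand: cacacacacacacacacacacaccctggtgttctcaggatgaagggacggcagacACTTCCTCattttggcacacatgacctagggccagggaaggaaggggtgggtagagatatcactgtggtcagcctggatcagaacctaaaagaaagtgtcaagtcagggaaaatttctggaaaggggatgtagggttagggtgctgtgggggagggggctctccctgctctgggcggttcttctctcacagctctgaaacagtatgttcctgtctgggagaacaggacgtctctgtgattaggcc
Fos, chr12:85473640-85473939, plus strand: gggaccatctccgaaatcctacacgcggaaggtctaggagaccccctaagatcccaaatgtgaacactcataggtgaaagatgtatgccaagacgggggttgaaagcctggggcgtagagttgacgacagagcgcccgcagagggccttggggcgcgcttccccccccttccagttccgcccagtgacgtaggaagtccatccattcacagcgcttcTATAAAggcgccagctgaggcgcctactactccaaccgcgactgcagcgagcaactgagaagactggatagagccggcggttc
Zcrb1, chr15:93398285-93398584, minus strand: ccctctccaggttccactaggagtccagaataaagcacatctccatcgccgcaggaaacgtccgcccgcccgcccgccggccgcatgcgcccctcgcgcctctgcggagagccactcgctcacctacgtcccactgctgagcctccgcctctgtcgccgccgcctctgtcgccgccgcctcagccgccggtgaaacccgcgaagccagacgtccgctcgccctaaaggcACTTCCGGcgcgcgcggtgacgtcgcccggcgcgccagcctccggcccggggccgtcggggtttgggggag

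Counted from the start of the gene, the PU.1 letters began at base -2 in Ctss, at base 7 in Cd53 and at base -195 in C1qc. The TATA letters of Fos began at base -33, and the ETS letters of Zcrb1 at base -21. Zcrb1, an RNA-binding protein of the minor spliceosome, read 8.23, 8.23, 8.13, 8.22 and 8.21, and its window holds 43 CpG dinucleotides, against 5 in Ctss, 4 in Cd53 and 3 in C1qc. C1qc, a subunit of complement C1q, read 9.69, 10.64, 10.83, 10.78 and 10.70.

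Dim and bright genes had different promoters. The genes were split by level into 10 equal groups, with the sensory receptor genes kept in. Groups 1 to 5 had median levels of 4.67 to 6.14, under the background of every array, so their order is not one of detected expression. From group 6, with a median level of 6.55, to group 10 the TATA share went from 8.82% to 6.93%. The ETS share went from 5.11% to 7.35% over the same groups. In the dimmest group 34.6% of windows held the TATA letters and 0.630% the general ETS letters, and in the brightest group 6.93% and 7.35%. The ETS share was highest in group 8, at 9.94%. The median ratio of observed to expected CpG went from 0.13 in the dimmest group to 0.80 in the brightest, and the median GC content from 39.3% to 62.8%. GC content also affects hybridization and amplification, and its part in the levels was not tested.

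Genes that varied between arrays and genes that did not also had different promoters. Among genes above background with a window, the 300 with the highest SDs held the PU.1 letters in 7.67%, 23 genes, and the 300 with the lowest SDs in 0.667%, 2 genes. The general ETS letters showed the reverse, with 2.33% and 9.33%, as did NRF1 with 1.33% and 8.00%, and the TATA letters were held by 36 and 16 of 300 genes. Over all 6282 genes above background with a window the shares were 3.10% for PU.1, 8.72% for ETS, 5.76% for NRF1 and 6.91% for TATA, so the ETS share of the 300 lowest SDs was close to that of all. Of the 23 variable genes with PU.1 letters 20 were lowest on array 1, among them Cd53, C1qc and Eng, as were 182 of all 300. Without array 1, in an analysis added after the data were seen, the PU.1 share of the 300 highest SDs was 3.67%, the ETS share 6.67% and the NRF1 share 3.33%. All 3 shares thus moved by more than 1.5 times when that array was left out. The brighter median level of the variable genes, 8.72 against 7.37, moves with these shares, and its part was not tested.

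**Figure D5:**
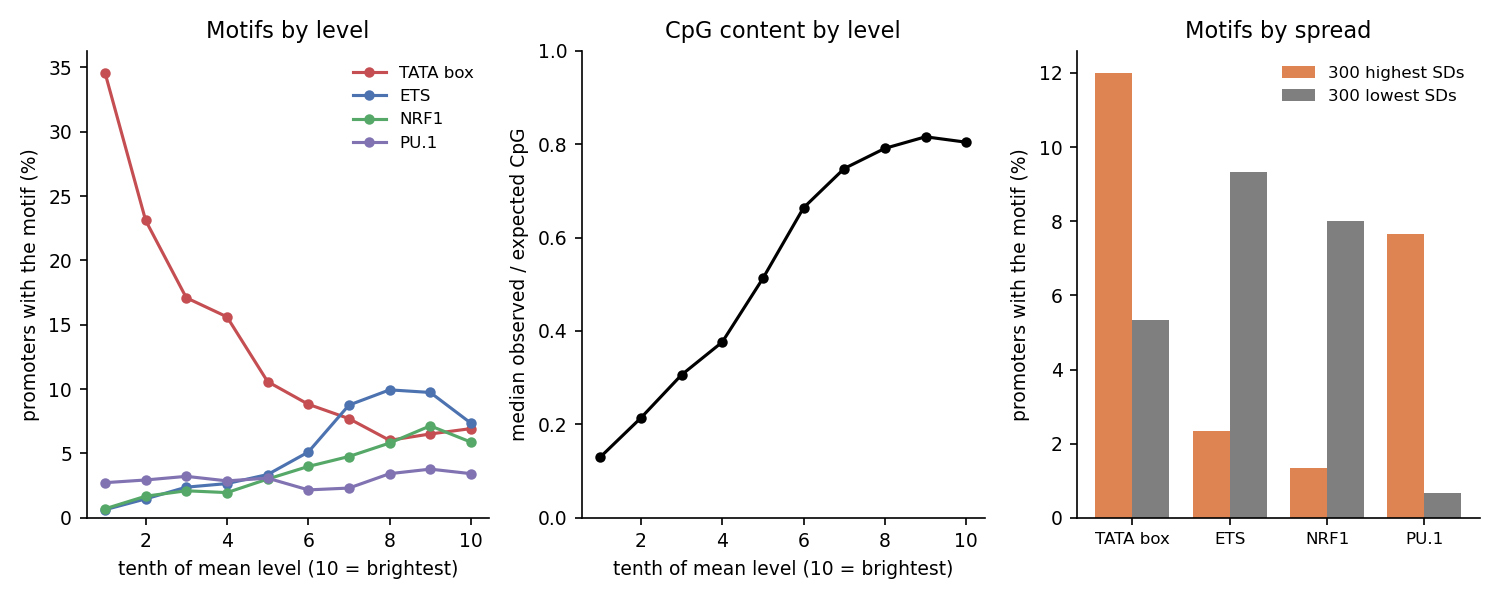
Share of promoter windows that hold each motif (left, %) and median observed to expected CpG ratio (middle) in 10 equal groups by mean level (x axis, 10 is the brightest), and share of windows with each motif (right, %) among the 300 genes above background with the highest SDs and the 300 with the lowest. The TATA share is 34.6% in group 1 and 6.93% in group 10, the CpG ratio 0.13 and 0.80, and the PU.1 and ETS bars lean opposite ways. Groups 1 to 5 have median levels of 4.67 to 6.14, under the background.

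Among listed genes with 1 window, 3 of 18 microglia genes, 0 of 26 astrocyte identity genes and 0 of 17 early response genes held the PU.1 letters, against 428 of all 14276 windows, so that counts of 0 in lists of this size say little. The TATA letters were found in 4 of 26 astrocyte genes, 4 of 17 early response genes and 4 of 7 cytokine genes, against 13.7% of all windows. The CCAAT box was present in 13 of 26 astrocyte and 8 of 11 clock genes, against 38.9% of all windows. Near matches were not counted.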

How the data were processed

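Log2 signal values per probe set of an Affymetrix whole-transcript mouse array were used as the authors deposited them, 1 column per array, made in GeneSpring 13.1.1 per the series' design text. The background correction, scaling and summary method are unknown here, and the log2 scale was read from the values. Only the 5 control columns were used. Probe sets with 1 gene symbol in the platform annotation were kept and the brightest per gene was taken. Background is the 95th percentile of sensory receptor genes on each array. Array number limits the precision, and the spread may be technical or biological.

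Named genes are the 30 highest means, the 30 highest SDs with a mean above background, the 10 lowest SDs in the brightest 25%, the 6 highest means and 3 highest SDs of each list, and a set of fixed markers; predicted and small RNA genes were not named unless stated. The members and lists were chosen with earlier results of these data known. No test between groups was made, and the only check with a cutoff was the Dixon outlier check of single arrays described below. Computation used Python 3.11.15, numpy 2.4.6, pandas 2.3.3 and matplotlib 3.10.9 and was tested on simulated data. Alternatives were 2 other scalings, the mean of probe sets, 2 other backgrounds, leaving out dim probe sets, and leaving out each array.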

Additional observations from a re-analysis of the deposited data

Results flagged for a closer look

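Single arrays far from the other 4 were looked for with the Dixon outlier check. The gap of such an array to the nearest one had to exceed 0.71 of the range over the 5 arrays. A single array lay that far out in 33 of 206 named genes and in 691 of all 9978 genes above background, 6.93%. Chance alone marks about 1 in 20 groups of 5. Most of the named genes are markers of the same few cell types, so they are not independent of each other. Of the 34 lists with measured members, 1 stood apart in this way: the microglia list, whose mean was 9.98 on array 1 and 10.79 to 11.00 on arrays 2 to 5.

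Among the genes flagged, array 1 was the low one for members of the microglia list. In the border macrophage list array 1 was lowest for 1 of 9 members and array 3 for 6. Array 1 read 11.83 for Selplg, 11.75 for Ctss, 11.36 for C1qb, 10.84 for P2ry12, 11.19 for Lgmn and 8.25 for Tmem119. It also read low for Cd68 at 9.67, Cd53 at 9.93, C1qc at 9.69, the tetraspanin Cd81 at 12.50 and the integral membrane protein Itm2b at 11.51. The chemokine gene Ccl3, at 9.93, and the activation marker Cd83, at 8.02, were low there too. Beyond these genes array 1 was low for Eng at 8.45, the AP-1 member Jund at 9.39, the kinase Sgk1 at 8.55 and Actb at 9.03. It was high for 4 genes of astrocytes: the growth factor receptor Fgfr3 at 10.49 against 9.44 to 9.70 on the rest, the transcription factor Npas3 at 9.90 against 8.87 to 9.12, Gria2 at 11.13 against 10.04 to 10.32 and Slc4a4 at 10.91 against 10.21 to 10.41.

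Array 5 was the high one for genes of myeloid cells and interferon response. It read 8.64 for Il1b, 8.66 for Adgre4, 8.83 for Cybb, 7.91 for Itgal, 7.82 for Plbd1, 8.35 for Ifitm3, 7.03 for Plac8 and 7.68 for Ms4a4a. The next highest array read 6.97 for Il1b and 6.23 for Adgre4.

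Over all 9978 genes above background the order of the arrays was another: array 2 stood apart as the lowest in 182 genes and the highest in 71, array 5 in 20 and 34, and array 1 in 181 and 127. Among the named genes array 2 stood low for Fxr1 at 8.46 and Etnppl at 7.40 and high for Bgn at 9.67. Array 3 stood low for Zcrb1 at 8.13 against 8.21 to 8.23 on the rest, a gap that is far from the other arrays only because their own spread was so small.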

How the results depend on the processing

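With the background set at the 99th percentile of the sensory receptor genes, 4138 genes were above it on all 5 arrays in place of 9978, and 459 of them had a range above 1 in place of 731. The count of genes with a range above 1 ran from 167 without replicate 1 to 689 without replicate 4, it was 852 with the arrays at equal medians, and that of genes above background stayed between 9771 and 10238 under every other alternative run. The mean levels and median percentiles of the astrocyte identity and microglia lists and the number of genes shared by the 100 brightest of each array (54 to 80) moved by less than the spread between arrays, or by less than 1.5 times for the count, under the alternatives run. For the named genes the SD moved in 158 of 1853 cases, 72 of them without replicate 1, where 206 genes were compared. The level moved in 23 of 1853 cases, 22 of them with the mean of probe sets. That setting can change only genes with several probe sets. The mean levels of the other lists moved in 15 of 288 cases. Of these, 10 came with dim probe sets left out and 5 with the mean of probe sets. Shifting the arrays to equal medians changed which array had the lowest astrocyte list mean from 5 to 2 and the highest microglia mean from 3 to 5. No paired analysis was possible because there is 1 group and no comparison between groups. The counts of list members with a range above 1 and the motif shares with an array left out were added after the data were seen. Signal over background limits the dim genes: 2725 genes passed the background on some arrays only.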

Other observations

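Genes with several probe sets gave a different picture of array 2 according to the probe set used. For 269 genes the brightest and the second brightest probe set were both above background on all 5 arrays. The brightest probe sets were highest on array 2 for 40 of these genes, 14.9%, and the second brightest for 116, 43.1%. Of 41 second probe sets with a range above 1, 28 were highest on array 2, against 3 of 22 brightest probe sets with such a range. Over all 9978 genes above background array 2 was the highest for 12.7%.

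The genes concerned differ in function and cell type. The second probe set of Cst3 read 9.76, 12.09, 11.16, 10.39 and 10.14 on arrays 1 to 5, while its brightest read 12.06, 12.57, 12.57, 12.44 and 12.14. The second probe set of Selplg read 9.01, 11.80, 11.19, 10.38 and 10.39, that of Hspa8 9.06, 10.54, 9.68, 9.05 and 8.65, and that of Jund 6.94, 9.43, 7.98, 7.60 and 7.73. Each was highest on array 2 and next on array 3. Gapdh had the same 2 highest arrays but hardly varied, with second probe set values of 11.60, 11.63, 11.62, 11.59 and 11.61 and an SD of 0.02. Where in the transcripts these probe sets lie was not analysed here, and no explanation was tested. The genes in this paragraph were picked after their values were seen.

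Among the 22 genes whose brightest probe set had a range above 1, the array farthest from the mean deviated to the same side in the second probe set for 20, and it was also the farthest array there for 13. Among 126 genes with a range under 0.5 the side was the same for 73 and the farthest array for 29, and among all 269 genes for 175 and 87.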
